A study of Homo sapiens with 4 samples.

Results

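The genes described here encode the transcription factors that direct myeloid differentiation: the ETS-family factor SPI1 (PU.1), the C/EBP family members CEBPA, CEBPB, CEBPD, CEBPE and CEBPG, and the core binding factor genes RUNX1, RUNX2, RUNX3 and CBFB. They were listed by gene symbol, with earlier results of these data known. All 10 were found among the 58735 genes of the table. Expression was measured by RNA-seq in 4 libraries from cells labelled NB4, an acute promyelocytic leukemia line, of which 2 were untreated controls and 2 were made after 24 h of exposure to GNE-987 at 25 nM. This compound is a degrader molecule that links a ligand of the BET bromodomain proteins to the VHL ubiquitin ligase. No genetic change separates the groups, and all libraries come from a single cell line, so nothing here extends to other lines. The labels number 2 replicates in each group but do not say that they were separate cultures, so the p-values below measure only the spread between these libraries, which may be technical.

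SPI1 is a dose-sensitive master regulator of the macrophage, granulocyte and B cell lineages, and it is mutually antagonistic with the erythroid factor GATA1. The C/EBP proteins are basic leucine zipper factors that bind DNA as dimers. CEBPA starts the granulocytic programme, CEBPB serves emergency granulopoiesis and macrophages, CEBPD is an inducible stress-response member, CEBPE drives the late neutrophil granule genes, and CEBPG is a short, widely expressed dimer partner without a strong activation domain. RUNX1, RUNX2 and RUNX3 are the alternative DNA-binding alpha subunits of core binding factor, and CBFB is their shared non-DNA-binding beta subunit. CEBPA, RUNX1 and CBFB are all recurrent targets of mutation or fusion in acute myeloid leukemia.

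The label was compared with cell type markers. In the control libraries the 6 neutrophil precursor markers, which a promyelocytic line would carry, summed to 2.52 and 2.88 FPKM, a level per transcript length and per number of mapped fragments. MPO, a primary granule enzyme, stood at 0.0246 and 0 FPKM there, CTSG was listed at 0 in all libraries, and ELANE was listed at 0 in both controls. The 10 erythroid markers summed to 464 and 430 FPKM in the controls, each with a control mean of at least 1 FPKM. The libraries labelled NB4 thus did not show the markers of that label, and they are called by their label only. After GNE-987 the neutrophil precursor markers summed to 25.7 and 23.5 FPKM, the 5 monocyte markers went from sums of 2.15 and 1.74 to 155 and 157 FPKM, and the erythroid sum was 856 and 740 FPKM. The 4 B cell markers summed to 0.936 and 0.950 FPKM in the controls and to 23.7 and 22.1 FPKM after GNE-987, the 5 megakaryocyte markers to 1.39 and 1.41 and then 6.33 and 7.76 FPKM, and the 4 T cell markers to 18.5 and 17.2 and then 21.4 and 21.8 FPKM. All these sums are on the scale of the deposited values. Scaling to the reads on genes, described below, shifts log2 fold changes by −0.78. That would turn the direction of the T cell sum and take away most of the erythroid rise. The part of these marker shifts in the results on the 10 factors was not tested, and in bulk RNA fewer cells of a type and less RNA per cell cannot be told apart.

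A gene was tested when its mean over the 4 libraries reached 0.5 FPKM, and it was called changed at an unadjusted p under 0.05 with a fold change over 2 in either direction (limma on log2(FPKM + 0.1), 16668 genes tested). Of the 10 factors, 7 were tested and 3, CEBPA, RUNX2 and RUNX3, were too low. CEBPB, CEBPD and CEBPG were called lower after GNE-987 and CEBPE was called higher. SPI1, RUNX1 and CBFB were lower in both treated libraries but were not called. Because 58.5% of all tested genes were called, 24.9% lower and 33.6% higher, these 4 calls among 7 tested factors are close to the background in number. In all 7 tested factors the groups did not overlap, as in 89.1% of all tested genes, and 6 of the 7 had an adjusted p under 0.05, as had 77.6% of all tested genes. Of 10996 protein-coding genes tested, 3486 were called lower and 2638 higher. The median log2 fold change of the 7 tested factors was −0.75, beside 0.17 for all tested genes and −0.29 for the protein-coding ones. CEBPE passed the filter only through the GNE-987 libraries, so its being higher is fixed in part by the filter.

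**Figure D1:**
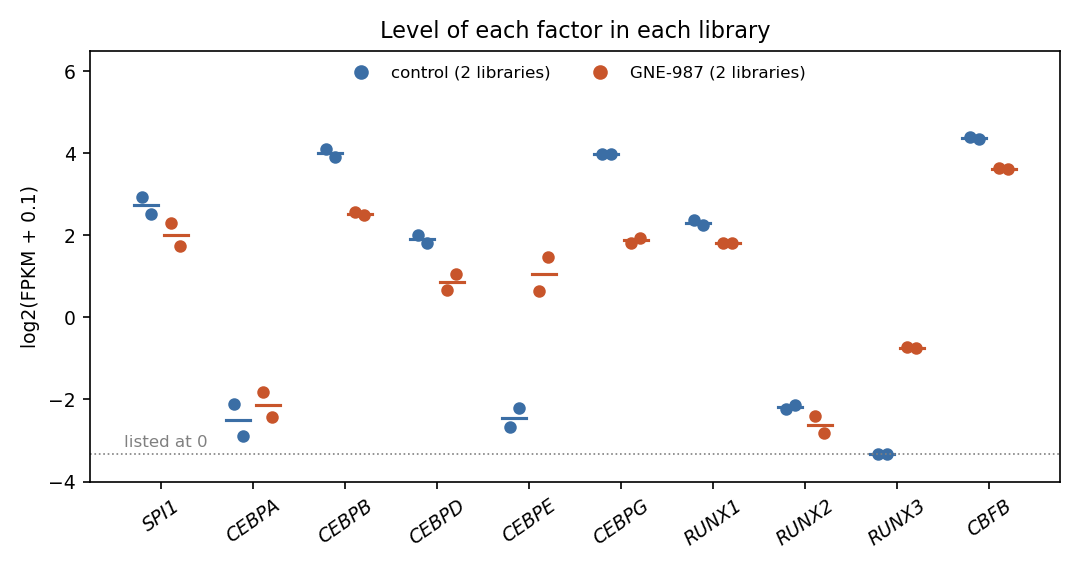
Level of each of the 10 factors in each library, as log2(FPKM + 0.1) on the vertical axis, with 1 point per library and a bar at the group mean (control blue, GNE-987 orange, 2 libraries each). The GNE-987 points lie below the control points for SPI1, CEBPB, CEBPD, CEBPG, RUNX1, RUNX2 and CBFB, above them for CEBPE and RUNX3, and among them for CEBPA; the dotted line marks genes listed at 0.

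The scale of the values bears on every fold change below. The reference gene GAPDH, a glycolytic enzyme, rose from 398 and 432 FPKM in the controls to 1501 and 1499 FPKM after GNE-987 (log2 fold change 1.85, limma adjusted p = 0.000178). FPKM values of a gene move in steps of 1 read, and from these steps the whole reads were recovered: 19469640 and 19273090 reads on genes in the controls against 12399477 and 12904961 after treatment. The worth of 1 read showed that the deposited values had been divided by 23024012 and 22120718 reads in the controls but by 8360488 and 8826052 in the GNE-987 libraries, fewer than their own reads on genes. Scaling to the reads on genes instead moved the median log2 fold change of all tested genes by −0.74. Values under other scalings are therefore given for named genes whose call or direction they change, though not for every such gene.

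SPI1 (ENSG00000066336, chromosome 11, 47354860 to 47378547, minus strand, 5 exons in the canonical transcript, GRCh38) was expressed at 7.52 and 5.68 FPKM in control replicates 1 and 2 and at 4.80 and 3.23 FPKM in GNE-987 replicates 1 and 2. Both treated libraries were lower than both controls, but the nearest values of the groups, 5.68 and 4.80 FPKM, were closer to each other than were the replicates of either group. Means were 6.60 ± 1.30 FPKM for the controls and 4.01 ± 1.11 FPKM for GNE-987 (SD, n = 2). On the log2 scale the change was −0.72 ± 0.26 (SE) and the limma adjusted p was 0.0653, which missed the threshold. These values rest on 358 and 260 reads in the controls and 83 and 59 reads after GNE-987. The log2 fold change ranged from −0.99 to −0.44 when each library in turn was left out. SPI1 was called lower when values were scaled to GAPDH (log2 fold change −2.53, limma adjusted p = 0.00175), to the reads on genes (−1.47, 0.00875) or fitted by limma-voom on the recovered reads (−1.51, 0.00255). The nearest genes, MYBPC3 and SLC39A13-AS1, had at most 11 reads in any library.

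Among the C/EBP genes, CEBPG showed the largest fall. CEBPG (ENSG00000153879, chromosome 19, 33373685 to 33382686, plus strand, 2 exons) stood at 15.8 and 15.7 FPKM in the controls and at 3.42 and 3.75 FPKM after GNE-987. The replicates were close together and far from the other group. It fell 4.31-fold on the log2(FPKM + 0.1) scale, or −2.11 ± 0.08 (SE) in log2 units, with a limma adjusted p of 0.00021. Against the median of all genes in the test, it lay 2.28 log2 units lower. The next gene downstream, PEPD on the opposite strand 4.26 kb past the CEBPG 3′ end, moved the other way under the deposited scale, from 8.87 and 8.84 to 26.0 and 28.0 FPKM (log2 fold change 1.60), but its log2 fold change was −0.24 when scaled to GAPDH and 0.82, not called, when scaled to the reads on genes.

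CEBPB (ENSG00000172216, chromosome 20, 50190830 to 50192668, plus strand), a gene of 1 exon, was measured at 17.2 and 15.0 FPKM in the controls and at 5.81 and 5.50 FPKM after GNE-987. Even the lower control was above both treated libraries by more than the spread in either group. The fall was 2.81-fold, or −1.49 ± 0.09 (SE) in log2 units, with a limma adjusted p of 0.000558. CEBPB-AS1, which overlaps CEBPB on the opposite strand, had between 5 and 33 reads per library, against at least 95 for CEBPB. Whether the counting used strand is not given in the sources used here, so reads from the shared stretch cannot be told apart.

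CEBPD (ENSG00000221869, chromosome 8, 47736913 to 47738164, minus strand, 1 exon) was less abundant, at 3.91 and 3.42 FPKM in the controls and at 1.48 and 1.98 FPKM after GNE-987. The groups did not overlap. Its 2.07-fold fall lay just past the threshold, at −1.05 ± 0.18 (SE) in log2 units with a limma adjusted p of 0.00848. The call was lost at a median-ratio scaling (−0.94), at a pseudocount of 1 (−0.78), without control replicate 1 (−0.96) and without GNE-987 replicate 1 (−0.86). The gene SPIDR, on the opposite strand 0.606 kb past its 3′ end, did not pass the test (5.14 and 5.30 against 6.30 and 5.77 FPKM). Its log2 fold change was 0.21, and the shift of −0.78 with scaling to the reads on genes would turn that direction. On the other side PRKDC, a DNA repair kinase, was called lower (log2 fold change −1.03), a call that the median-ratio scaling ended (−0.91).

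CEBPE (ENSG00000092067, chromosome 14, 23117036 to 23120256, minus strand, 2 exons) went the other way. It was near the floor in the controls, at 0.0559 and 0.116 FPKM from 2 and 4 reads, and reached 1.46 and 2.70 FPKM from 19 and 37 reads after GNE-987. Both treated libraries were above both controls, although they differed from each other nearly as much as the lower one differed from the controls. On the log2 scale the rise was 3.51 ± 0.41 (SE; limma adjusted p = 0.00274), and it stayed between 3.09 and 3.93 when each library was left out. The size depends on the pseudocount, since the controls are near 0: the log2 change was 1.47 with a pseudocount of 1 and 4.45 with 0.01, called in both. On the deposited scale, the ratio of FPKM rates from the reads was 24.5. Its exact 95% interval of 10.6 to 69.6 covers counting error only. CEBPE was called higher under each scaling tried, with log2 fold changes from 2.14 (quantile normalization) to 3.63 (limma-voom).

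The surroundings of CEBPE changed as well. SLC7A8, an amino acid transporter gene on the same strand whose 3′ end lies 5.04 kb before the CEBPE 5′ end, went from 3.71 and 2.97 to 7.95 and 8.09 FPKM (log2 fold change 1.25, limma adjusted p = 0.00201), but its log2 fold change was −0.57 when scaled to GAPDH and 0.48, not called, when scaled to the reads on genes. CIROP, 12.0 kb past the CEBPE 3′ end on the same strand, had 1 and 1 reads in the controls and 25 and 30 after GNE-987 (log2 fold change 3.26, limma adjusted p = 0.00183). All 3 genes on this strand were therefore called higher on the deposited scale. CIROP, like CEBPE, passed the filter only through the GNE-987 libraries, so its being higher is fixed in part by the filter. The part of transcription running in from SLC7A8 in the CEBPE values was not tested.

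CEBPA (ENSG00000245848, chromosome 19, 33299934 to 33302534, minus strand, 1 exon) was barely detected, at 0.132 and 0.0344 FPKM in the controls and at 0.182 and 0.0861 FPKM after GNE-987. The groups overlapped, and the values came from between 2 and 8 reads. On the deposited scale the ratio of FPKM rates was 1.58 with an exact 95% interval of 0.471 to 4.79. No difference was thus detectable at this depth. Scaling to the reads on genes shifts the log2 of such ratios by −0.78, which would turn the direction of this one. The interval was not computed on that scale. The pair of noncoding genes that overlap CEBPA were listed at 0 in every library.

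The promoter sequences of the C/EBP genes whose calls were largest are shown because they differ in base composition and in the motifs they hold. RefSeq promoters (GRCh38.p14, 250 bases before and 50 after a start) were given for 7 of the 10 genes; SPI1, CEBPD and CBFB had no entry. The bases before the start are printed 5′ to 3′ on the strand of the gene, up to any annotated exon of that gene. Capitals mark the GC box (GGGCGG or CCGCCC) in CEBPB and CEBPG and the core ETS letters that SPI1 can bind (GAGGAA or TTCCTC) in CEBPE. The CEBPB stretch is chr20:50190333-50190582 (plus strand), the CEBPG stretch is chr19:33373459-33373684 (plus strand), and the CEBPE stretch is chr14:23119256-23119505 (minus strand), which lies between annotated exons inside the GENCODE gene.
CEBPB: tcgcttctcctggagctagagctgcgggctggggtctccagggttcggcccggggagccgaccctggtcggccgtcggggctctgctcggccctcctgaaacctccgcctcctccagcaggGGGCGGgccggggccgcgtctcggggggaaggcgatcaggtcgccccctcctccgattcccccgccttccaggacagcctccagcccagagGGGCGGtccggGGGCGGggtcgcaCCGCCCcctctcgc
CEBPG: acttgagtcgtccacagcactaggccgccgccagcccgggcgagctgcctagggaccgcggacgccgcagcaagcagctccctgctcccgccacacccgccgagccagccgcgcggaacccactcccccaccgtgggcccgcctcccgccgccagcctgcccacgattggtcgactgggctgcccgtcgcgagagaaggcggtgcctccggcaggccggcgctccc
CEBPE: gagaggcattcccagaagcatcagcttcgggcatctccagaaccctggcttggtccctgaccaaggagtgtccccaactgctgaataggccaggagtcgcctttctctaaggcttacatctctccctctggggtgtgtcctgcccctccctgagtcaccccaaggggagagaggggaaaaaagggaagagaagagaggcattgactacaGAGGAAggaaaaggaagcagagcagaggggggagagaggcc

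CEBPB, which fell, holds 4 GC boxes in this stretch and 75.6% G and C. CEBPG, which fell more, has no GC box there at 75.7% G and C. CEBPE, which rose, has 57.2% G and C, no GC box and 1 ETS match. Of all 35116 promoters of 300 bases, 45.0% hold a GC box and 27.9% an ETS match on either strand, and the median G and C content is 58.7%. None of the CEBPA, CEBPB, CEBPE and CEBPG promoters holds the C/EBP letters TTGCNNAA, which 10.5% of all promoters hold. A match describes letters only and is not evidence of binding.

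Of the core binding factor genes, CBFB was the most abundant in every library. CBFB (ENSG00000067955, chromosome 16, 67028984 to 67101058, plus strand, 6 exons) was at 21.1 and 20.3 FPKM in the controls and at 12.3 and 12.2 FPKM after GNE-987. The replicates nearly coincided and the groups were well apart. CBFB changed by −0.75 ± 0.05 (SE) on the log2 scale with a limma adjusted p of 0.000687, so it passed the p threshold but not the fold threshold. PHAF1, 8.88 kb past its 3′ end, went from 3.54 and 3.33 to 6.32 and 7.01 FPKM and was not called; its log2 fold change of 0.93 was 1.05, and called, with median-ratio scaling and −0.88 with scaling to GAPDH.

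RUNX1 (ENSG00000159216, chromosome 21, 34787801 to 36004667, minus strand, 9 exons), the alpha subunit that definitive blood stem cells require, was at 5.06 and 4.69 FPKM in the controls and at 3.39 and 3.40 FPKM after GNE-987. Its groups were separate, and the treated libraries differed by less than the controls did. RUNX1 changed by −0.51 ± 0.08 (SE) on the log2 scale with a limma adjusted p of 0.00752, again within the fold threshold. RUNX1 and CBFB were both called lower when scaled to GAPDH (−2.31 and −2.59), to the reads on genes (−1.26 and −1.52) or with limma-voom (−1.30 and −1.53). The 7 pseudogenes and noncoding genes that overlap RUNX1 had at most 2 reads each.

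RUNX2 (ENSG00000124813, chromosome 6, 45328157 to 45664349, plus strand, 9 exons), best known from bone formation, was at 0.111 and 0.127 FPKM in the controls and at 0.0876 and 0.0415 FPKM after GNE-987, too low to be tested. The treated values were the lower ones, on 21 and 23 reads against 6 and 3. On the deposited scale their ratio of FPKM rates was 0.537 with an exact 95% interval of 0.231 to 1.12, which includes no change. Scaling to the reads on genes shifts the log2 of such ratios by −0.78. Whether the interval includes no change therefore depends on the scale, and it was not computed on the other one. SUPT3H, a chromatin cofactor gene that overlaps RUNX2 on the opposite strand, was called lower (4.03 and 3.98 against 2.02 and 1.77 FPKM), a call that the median-ratio scaling ended (log2 fold change −0.93).

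RUNX3 (ENSG00000020633, chromosome 1, 24899511 to 24965121, minus strand, 5 exons), an alpha subunit known from T cells, natural killer cells and monocytes, was listed at 0 in both controls. It was at 0.502 and 0.501 FPKM, from 19 and 20 reads, in the GNE-987 libraries. On the deposited scale, the RUNX3 rate after GNE-987 was 34.1 times a floor of 3 reads over the control group. The exact 95% lower limit of the ratio, which takes in the counting error of both groups, was 26.5. With a mean under 0.5 FPKM it was outside the main test, and without that filter it was called higher (log2 fold change 2.59, limma adjusted p = 0.00464). RUNX3-AS1, which overlaps it on the opposite strand, had 0 and 0 reads in the controls and 2 and 1 after GNE-987. CLIC4, on the opposite strand 55.2 kb past the RUNX3 3′ end, was called higher (12.2 and 14.3 against 40.5 and 37.9 FPKM, log2 fold change 1.56). The CLIC4 log2 fold change was −0.28 when scaled to GAPDH and 0.79, not called, when scaled to the reads on genes. The monocyte markers rose in the same libraries, as given above, and their part in the RUNX3 and CEBPE values was not tested.

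The RUNX3 promoter is printed because it holds paired RUNX letters (TGTGGT, or ACCACA on the other strand, in capitals), which 13.1% of all promoters hold at least once. The stretch is chr1:24965122-24965260 (minus strand) and ends at the base before the annotated start.
RUNX3: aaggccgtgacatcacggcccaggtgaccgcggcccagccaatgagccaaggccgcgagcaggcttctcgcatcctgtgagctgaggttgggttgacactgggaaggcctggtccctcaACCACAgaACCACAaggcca

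Both matches read ACCACA and lie close together near the start. The RUNX2 promoter holds 4 RUNX matches and 1 C/EBP match in 300 bases. Of its 250 bases before the start, 173 lie in annotated RUNX2 exons. The RUNX1 promoter holds no RUNX match, 3 GC boxes and 1 ETS match. It lies at chr21:34888650-34888949 (minus strand), inside the gene and not at its annotated 5′ end at 36004667. The RUNX2 and RUNX3 promoters span the annotated starts of their genes, so the entries are not at like positions. No test was attached to their differences in letters.

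**Figure D2:**
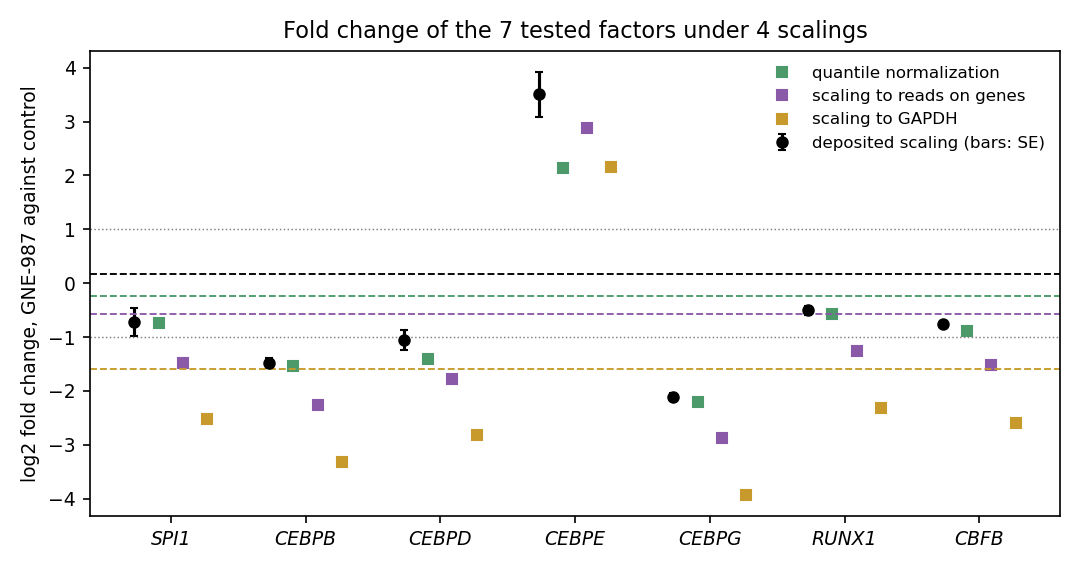
Log2 fold change of each tested factor, GNE-987 against control, under the deposited scaling (black, bars are limma standard errors, n = 2 and 2) and 3 others (squares); dotted lines mark a fold of 2 and dashed lines the median of all tested genes under the scaling of the same colour. CEBPG, CEBPB, CEBPD, CBFB, SPI1 and RUNX1 lie below 0 and CEBPE above 0 under every scaling shown.

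Levels per length can be compared within a library. In the controls CBFB was highest, followed by CEBPB and CEBPG, whose ranges overlapped, and then by SPI1, RUNX1 and CEBPD. RUNX2, CEBPE and CEBPA lay far below with overlapping ranges, and RUNX3 was last. After GNE-987 the order was CBFB, CEBPB, then CEBPG and RUNX1, close to each other and both within the range of SPI1, then CEBPE and CEBPD with overlapping ranges, then RUNX3, and then CEBPA and RUNX2, whose ranges met. Ranks are among the tested genes, a set that the filter drew from the deposited values and that thus depends on their scale. Of the tested factors CEBPG lost the most rank, from percentile 85.0 in both controls to 53.6 and 56.1. CEBPB moved from 86.2 and 84.3 to 66.7 and 65.6, while CBFB kept a high rank at 88.8 and 88.3 and then 80.5 and 80.3. CEBPE climbed from 12.8 and 15.6 to 29.2 and 47.3.

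**Figure D3:**
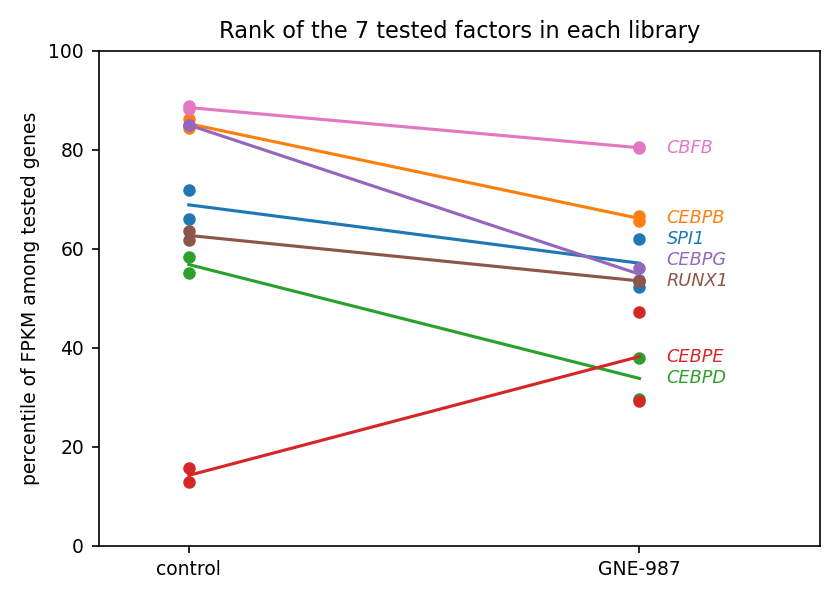
Percentile of each tested factor among the 16668 tested genes of the same library (1 point per library, 2 control and 2 GNE-987, lines between group means). The order within a library does not depend on scaling between libraries. The set of tested genes does, since the filter used the deposited values. CEBPG drops from 85.0 to 53.6 and 56.1, CBFB only from 88.8 and 88.3 to 80.5 and 80.3, and CEBPE rises.

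Ratios within a library do not depend on the scaling between libraries. For 4 ratios the exact two-sided permutation test of 2 against 2 libraries cannot go below p = 0.333, and each of the 4 gave that value, so none could pass the threshold, before or after adjustment. The log2 ratio of RUNX1 to CBFB was −2.06 and −2.11 in the controls and −1.86 and −1.84 after GNE-987, a difference of 0.24. The alpha to beta subunit ratio thus shifted little beside the shifts of the other 3 ratios. The log2 ratio of CEBPG to CEBPB went from −0.12 and 0.07 to −0.77 and −0.55, with CEBPG losing more. The log2 ratio of CEBPA to CEBPB went from −7.02 and −8.77 to −5.00 and −6.00, but it rests on at most 8 CEBPA reads. The log2 ratio of SPI1 to GATA1 went from −4.04 and −4.42 to −1.65 and −1.96, a difference of 2.43, in libraries where both genes were lower and GATA1 by more.

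**Figure D4:**
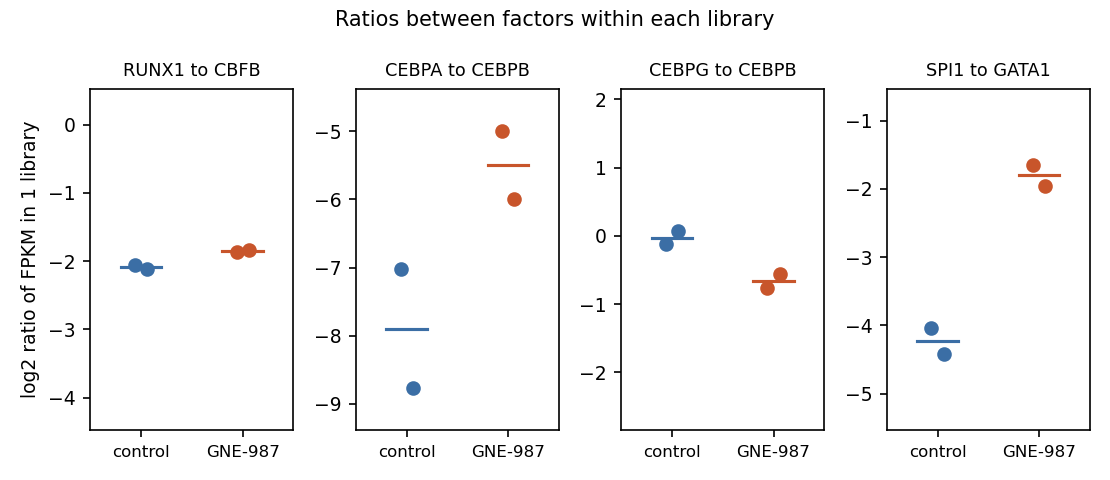
Log2 ratio of FPKM between a pair of genes in each library (1 point per library, bars at the group means), in panels whose vertical axes span the same number of log2 units at different positions. The SPI1 to GATA1 ratio is higher in both GNE-987 libraries by 2.43 on average, the RUNX1 to CBFB ratio by 0.24, and the CEBPG to CEBPB ratio is lower.

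Of 12 partners and antagonists of SPI1 (ETS, IRF and GATA factors), 6 were tested, 4 were called lower, 1 higher and 1 neither way, with a median log2 fold change of −1.73. GATA1, the erythroid master factor, fell from 124 and 122 to 15.1 and 12.5 FPKM (log2 fold change −3.15, limma adjusted p = 0.000191). GATA2, the stem and progenitor factor, fell from 73.6 and 71.2 to 28.0 and 28.5 FPKM, and the ETS factor ELF1 from 17.0 and 17.8 to 4.53 and 3.48 FPKM. JUN, the AP-1 subunit that works with SPI1 in monocytic differentiation, rose from 4.22 and 3.95 to 499 and 531 FPKM (log2 fold change 6.94, limma adjusted p = 8.96e-05). All 4 directions held under every scaling. SPIC, IRF8 and FLI1 were listed at 0 in all libraries.

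Of 10 dimer partners and regulators of the C/EBP proteins, 8 were tested, with 3 called higher, 2 lower and 3 neither way and a median log2 fold change of 0.65, which turned to −1.20 with scaling to GAPDH, −0.14 with quantile normalization and −0.13 with scaling to the reads on genes. With scaling to GAPDH 0 were called higher and 5 lower, and with scaling to the reads on genes or limma-voom 1 was called higher and 2 lower. NFIL3, a bZIP repressor, rose from 4.75 and 3.82 to 20.1 and 18.5 FPKM, a call lost with scaling to GAPDH. TRIB2, the pseudokinase adaptor that sends CEBPA to degradation, fell from 19.3 and 19.6 to 5.63 and 5.21 FPKM under every scaling. ATF4, the stress-response partner, was at 116 and 118 and then 142 and 134 FPKM, and CALR, which binds CEBPA mRNA, at 186 and 193 and then 330 and 333 FPKM. Neither of these was called, and the ATF4 and CALR log2 fold changes of 0.23 and 0.81 were −1.62 and −1.05, both called lower, when scaled to GAPDH. ATF4 was positive under only 1 of the 5 other scalings (−0.54 with the reads on genes) and CALR under 3.

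Of 15 RUNX cofactors, 11 were tested, 0 were called higher, 1 lower and 10 neither way, with a median log2 fold change of −0.04 (0.08 with median-ratio scaling). At an unadjusted p under 0.05 alone, limma put 3 of them higher and 4 lower, and limma-voom called 0 higher and 4 lower. The gene called was CBFA2T3, a corepressor of the ETO family named here after its values were seen, which fell from 28.4 and 26.6 to 2.36 and 2.16 FPKM (log2 fold change −3.55, limma adjusted p = 0.000128) under every scaling. The most abundant, the arginine methyltransferase PRMT1 and the Groucho-family gene TLE5, were at 61.4 and 58.2 and then 88.7 and 84.0 FPKM, and at 46.3 and 42.7 and then 66.6 and 66.4 FPKM. The deacetylases were at 32.9 and 33.6 and then 42.3 and 38.7 FPKM for HDAC1, and at 21.3 and 21.4 and then 21.2 and 22.1 FPKM for HDAC3. These 4 genes were not called, and their log2 fold changes were negative with scaling to GAPDH or to the reads on genes. With scaling to GAPDH all 11 tested cofactors were called lower, and with scaling to the reads on genes 4 were. RUNX1T1, TLE1, TLE4 and ETS1 were listed at 0 in all libraries.

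Of 30 myeloid genes known as targets of these factors, 14 were tested, 9 were called higher, 2 lower and 3 neither way, with a median log2 fold change of 1.90 (0.08 with scaling to GAPDH, where 5 were called higher and 3 lower). Of the 14, 6 reached the filter only through the GNE-987 libraries, so they had to differ, and 5 of them were called higher. The other 8 had 4 calls higher and 2 lower and a median of 0.88. The integrin ITGAM rose from 0 and 0.0318 to 56.8 and 58.0 FPKM, the lipopolysaccharide coreceptor CD14 from 0.0921 and 0.120 to 50.4 and 52.2 FPKM, and the Fc receptor FCGR1A from 0.0290 and 0 to 40.2 and 37.9 FPKM. These 3 are among the 6 and were called higher under every scaling. CST3, a protease inhibitor, went from 34.8 and 27.7 to 112 and 118 FPKM, a call lost with scaling to GAPDH (log2 fold change 0.04). TLR4, CTSG, LTF, CAMP, MMP8 and TYROBP were listed at 0 in all libraries, and LTF, CAMP and MMP8 among them are late neutrophil granule genes. CD14 lies 5.04 kb past the 3′ end of NDUFA2, which was at 18.7 and 16.2 and then 68.7 and 66.1 FPKM. The 4 noncoding genes named after a factor, RUNX3-AS1, CEBPB-AS1, CEBPA-DT and RUNX2-AS1, were all too low to be tested.

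**Figure D5:**
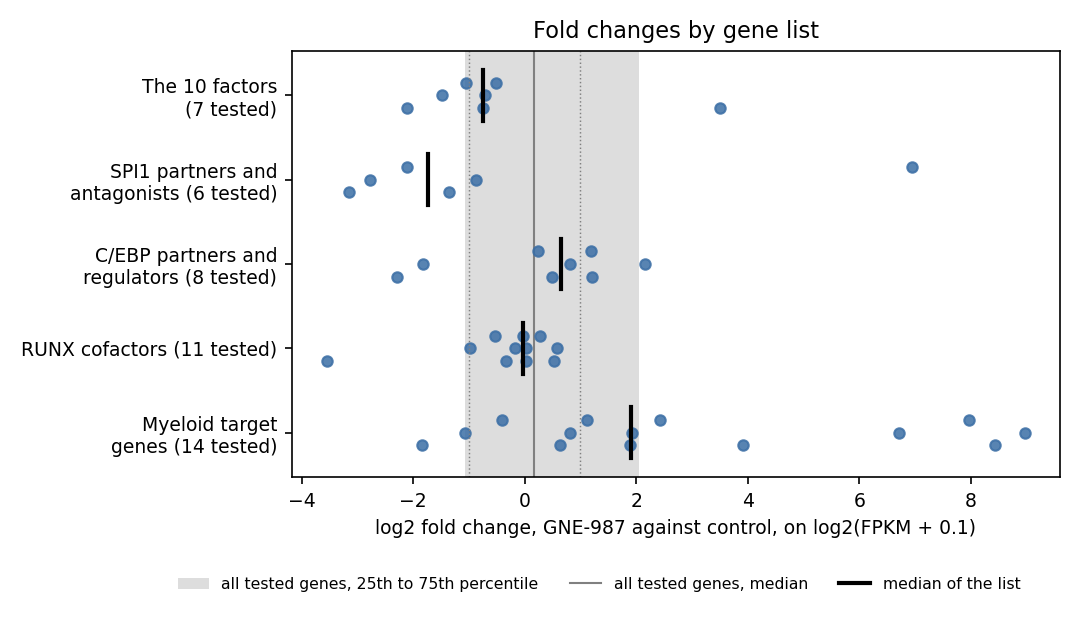
Log2 fold change of the tested genes of each list on log2(FPKM + 0.1), 1 point per gene with a bar at the list median, over the middle 50% of all tested genes (grey) and their median of 0.17. The list medians are −0.75 for the factors, −1.73 for SPI1 partners, 0.65 for C/EBP partners, −0.04 for RUNX cofactors and 1.90 for myeloid targets.

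By name, SPI1, RUNX1 and RUNX2 stand on the study's list of genes near super-enhancers of acute myeloid leukemia samples. SPI1 and CEBPB stand on its list for NB4. That list covers NB4 cells both without and with GNE-987, and the conditions were not separated here. SPI1 is on both, and its change here was 1 of the 3 that were not called among the tested factors. CEBPG and CEBPD, which were called lower, are on neither list.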

How the data were processed

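The authors mapped filtered reads, tested genes with DESeq2 and deposited 1 table of FPKM values per gene and library. HISAT2 2.0.5 and hg38 come from the submitters' processing notes; the counter, the annotation and any strand setting are not given in the sources used here. Groups and replicate numbers come from the sample labels, and dose and time from the study's text. The table had 0 columns of no sample. Identifiers (99.1% of them) were matched to GENCODE release 44 (GRCh38).

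The fit used log2(FPKM + 0.1) and the 16668 genes whose mean reached 0.5 FPKM, in limma 3.58.1 under R 4.3.3 (intensity trend, no replicate block), and was first tested on simulated data. Thresholds (p under 0.05, fold over 2 or under 0.5) follow the study's methods, and adjusted p-values are Benjamini-Hochberg values over all tested genes. The replicates differed by a median absolute log2 difference of 0.117 in the controls and 0.176 in the GNE-987 libraries.

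Whole reads were recovered from the FPKM steps (tolerance 0.01): 53.0% of the 32895 genes above 0 came out whole at the annotated length, 15102 genes at another length, and 362 not at all. Among the 10 factors, RUNX1 and RUNX2 did so at the annotated length. Exact 95% intervals and the floor of 3 reads cover counting error only.

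The 10 factors and all gene lists were chosen with earlier results of these data known. The genes named are the 10 factors, the 4 tested genes of each list with the highest mean FPKM, list genes at 0 in all libraries, overlapping and nearest genes, and GAPDH; 1 list gene is not reported here. The alternatives were other scalings (GAPDH, median-ratio, quantile, reads on genes), a pseudocount of 1 or 0.01, a filter at 1 FPKM or none, calls by adjusted p, limma's test against a fold of 2, a replicate block, limma-voom on the recovered reads, and leaving out each library. Alternatives for the ratios were added after the data were seen.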

Additional observations from a re-analysis of the deposited data

How the results depend on the processing

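CEBPB, CEBPG and CEBPE kept direction and call under all 15 alternatives each, and SPI1, RUNX1 and CBFB kept their direction. With scaling to GAPDH the 5602 genes called higher became 3031 and the 4148 called lower became 9738, and the calls for lower factors went from 3 to 6. With scaling to the reads on genes 6644 genes and 6 factors were called lower, and with limma-voom on the recovered reads 6715 genes and 6 factors. Higher genes made up 57.5% of calls on the deposited scale, 23.7% with GAPDH, 43.7% with quantile normalization, 38.6% with the reads on genes and 38.8% with limma-voom. The median of all tested genes shifted by −1.77 with GAPDH, −0.42 with quantile normalization, 0.11 with median-ratio scaling and −0.74 with the reads on genes. Without the filter 8757 genes and 2 factors were called higher, RUNX3 being the one added. Leaving out each library gave 4978 to 5374 genes higher and 3714 to 4101 lower, with 1 to 1 factors higher and 2 to 3 lower. CEBPD also lost its call in a test against a fold of 2 (limma adjusted p = 0.656). Over the other alternatives the limma adjusted p ranged from 0.000466 to 0.0756 for CEBPD and from 0.00175 to 0.295 for SPI1. A replicate block gave 5667 genes higher and 4186 lower, with 1 factor higher and 3 lower as without it. The deviations of same-numbered libraries correlated at 0.00537 over the tested genes. That value shows no shared deviation across genes as a whole, but it cannot exclude that the libraries were paired. SPI1 was higher in replicate 1 of both groups. With the block its limma adjusted p was 0.00766, its fold still within the threshold. Leaving out a library turned the sign of the RUNX cofactors CBFA2T2 (−0.0406 to 0.104; negative, at −0.0095, also without control replicate 1) and HDAC3 (−0.0105 to 0.0533). CREBBP, named after its values were seen like CBFA2T2 and CD33, was called lower without control replicate 1 (−1.08) or GNE-987 replicate 2 (−1.02). CD33, 1 of 2 myeloid targets called lower, lost its call without control replicate 1 (−1.13), control replicate 2 (−1.01) or GNE-987 replicate 2 (−0.80). The causes of these changes were not tested. At the depth of the GNE-987 libraries, genes with few reads such as CEBPA and RUNX2 allow no statement on small differences.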
